A study of Mus musculus with 6 samples.

Results

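Connexins and pannexin 1 form the channels through which neighbouring cells, or a cell and its surroundings, exchange ions and small molecules. The genes described are Gja1, Gja4, Gja5, Gjb1, Gjb2, Gjb5, Gjb6, Gjc1 and Panx1, taken by symbol from the count table: 9 of its 23478 genes. They were compared between muscle and epithelium sorted from the mouse trachea at embryonic day 13.5. The embryos of both groups were Bmp4 f/f and carried the gamma SMA eGFP reporter, and the titles call all libraries controls. Muscle was collected by GFP, so it holds cells in which that smooth muscle actin reporter was on, and epithelium by an antibody to Epcam. There were 3 libraries per group. The labels name no Cre driver and do not say whether embryos were pooled or cultures were separate, so p-values measure only the spread between these libraries.

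Connexin subunits assemble into a hemichannel, and hemichannels of adjoining cells dock to make a gap junction. In smooth muscle such junctions pass electrical and calcium signals between cells, and in airway epithelium they spread calcium waves. Pannexins share the topology of connexins but mainly make channels of a single membrane, and Panx1 is known for releasing ATP.

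Total counts ranged from 11847432 to 54848820 per library. Levels are given as CPM, which are counts per 1000000 counts of a library, its total being scaled first by edgeR's TMM factor. Each of 10 smooth muscle markers was higher in muscle and each of 11 epithelial markers in epithelium (adjusted p under 0.05, edgeR), and their summed levels did not overlap. Muscle replicate 2 had the least muscle marker signal, with a sum of 4137 CPM against 16896 and 17829 in replicates 1 and 3. Muscle replicate 2 and epithelium replicates 2 and 3 carried the most counts in the 1449 genes of olfactory or vomeronasal receptors, proteins of sensory neurons. Those receptor genes averaged 0.53, 0.98 and 0.41 CPM in these 3 libraries and 0.0046 to 0.030 CPM in the others, a level called background below. Header identifiers read as dates place both replicates numbered 2 on an earlier day than the other 4 libraries. These are sorted bulk samples, so fewer cells with a transcript and less of it per cell cannot be told apart.

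All 9 genes passed the filter on low counts, and 2 of them differed (adjusted p under 0.05): Gja5 was higher in muscle and Panx1 in epithelium. Among all 19375 genes tested, 10.7% differed, 6.58% toward muscle and 4.11% toward epithelium. The groups did not overlap in 4 of the 9 genes (Gja4, Gja5, Gjb5 and Panx1), of which the first 3 lay toward muscle. Among all tested genes 26.9% did not overlap, 16.4% toward muscle and 10.5% toward epithelium. The median log2 fold change, muscle over epithelium, was 0.06 over the 9 genes and -0.10 over all tested genes. That median of all genes was -0.20 with DESeq2 size factors and -0.33 when libraries were scaled by size only.

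**Figure D1:**
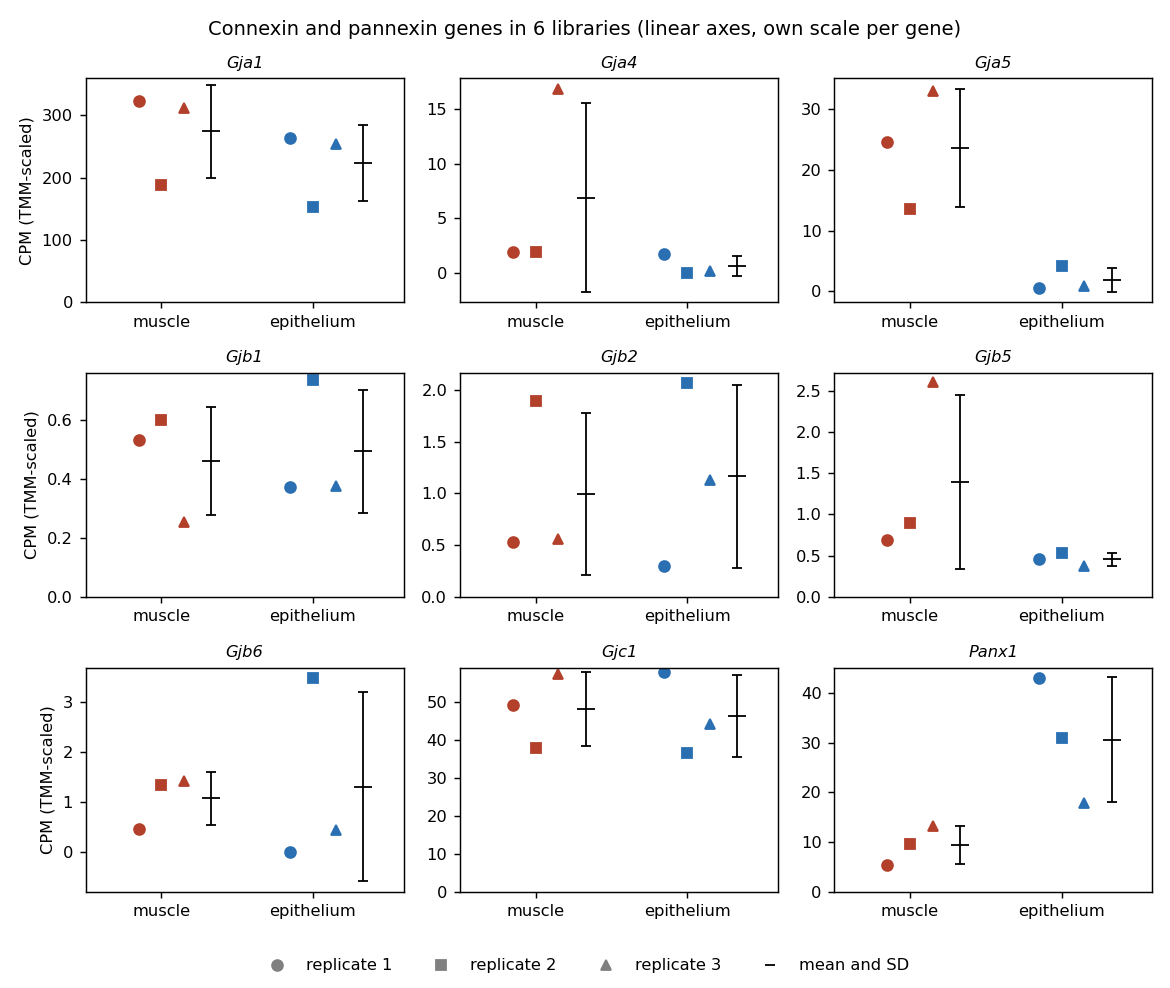
TMM-scaled CPM (linear axis, own scale per panel) of each of the 9 genes in the 6 libraries; points are libraries, bars the mean and SD of 3. Gja5 stands higher in all 3 muscle libraries and Panx1 in all 3 epithelial libraries, while Gja1 and Gjc1 overlap.

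Promoters are shown for the genes that differed and for Gja1, the most abundant connexin here. Each is the 250 bases before a RefSeq start site (GRCm38.p6). Counts were per gene symbol, so the start site used in these cells is not known. The Gja5 window lies inside the GENCODE span of that gene, which begins at chr3:96904693. RefSeq windows were found for 8 of the 9 genes, the other being Gjc1. Capitals mark matches on either strand to any of 5 motifs: the CArG box bound by serum response factor, the TATA box searched as TATAAA, the GC box of Sp factors searched as GGGCGG, the T-box site searched as TCACACC, and the AP-1 site searched as TGANTCA. The windows are written 5′ to 3′ on the strand of the gene.
Gja5, chr3:97032152-97032401, plus strand: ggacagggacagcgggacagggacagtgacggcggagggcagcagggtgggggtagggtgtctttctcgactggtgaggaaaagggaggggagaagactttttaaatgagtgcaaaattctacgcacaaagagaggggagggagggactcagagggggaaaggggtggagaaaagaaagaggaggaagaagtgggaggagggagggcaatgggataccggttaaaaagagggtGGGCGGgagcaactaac
Panx1, chr9:15045479-15045728, minus strand: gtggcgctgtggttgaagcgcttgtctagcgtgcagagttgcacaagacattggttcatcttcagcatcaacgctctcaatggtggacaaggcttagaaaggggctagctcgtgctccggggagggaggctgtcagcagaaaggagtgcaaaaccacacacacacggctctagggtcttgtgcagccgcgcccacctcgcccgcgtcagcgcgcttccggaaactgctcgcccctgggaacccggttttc
Gja1, chr10:56377050-56377299, plus strand: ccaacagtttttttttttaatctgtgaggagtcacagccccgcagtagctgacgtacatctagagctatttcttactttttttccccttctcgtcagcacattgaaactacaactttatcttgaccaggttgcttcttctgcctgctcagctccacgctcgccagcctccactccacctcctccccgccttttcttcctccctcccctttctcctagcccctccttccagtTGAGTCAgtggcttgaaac
Gja5 had 1 match to GGGCGG, which 32.7% of all 32851 windows of this length hold. Gja1 had 1 match to TGANTCA, present in 6.75% of windows. The Panx1 window held none of the 5 motifs. None of the 11 windows of the 8 genes held a CArG box or a T-box site. These occurred in 1.47% and 3.33% of all windows and the TATA box in 12.4%. No match overlapped another, and a match describes these letters only.

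Gja1 encodes Cx43, the connexin most widely found in smooth muscle and in many embryonic tissues. Its gene lies at chr10:56377330-56402513 (GENCODE M21, GRCm38), with the coding sequence in a single exon, as in most connexins. Gja1 had 323, 188 and 312 CPM in muscle replicates 1 to 3 and 263, 153 and 253 CPM in epithelium replicates 1 to 3. Replicate 2 was the lowest library of each population, and the populations overlapped. The muscle mean was 275 ± 74.8 CPM (SD, n = 3) and the epithelial mean 223 ± 60.9. Muscle over epithelium, the log2 difference came to 0.30 ± 0.31 (SE; adjusted p = 0.78, edgeR), with a 95% interval from -0.40 to 1.00. Its sign was positive in all 19 alternative settings (0.02 to 0.52) and none of them passed the threshold. Header identifiers match for numbers 1 and 2 only, so pairing libraries by number is doubtful. Paired in that way, Gja1 was higher in muscle in all 3 pairs. With the replicate block its log2 difference was 0.30 with an SE of 0.12 (unadjusted p = 0.044, adjusted p = 0.17, edgeR), and with the header date as a term the SE was 0.10 (unadjusted p = 0.026, adjusted p = 0.11).

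Gjc1, on the minus strand at chr11:102799579-102819700, encodes Cx45, known as an early connexin of cardiac and vascular smooth muscle. Its levels were 49.2, 37.9 and 57.5 CPM in the muscle libraries and 58.0, 36.6 and 44.3 CPM in the epithelial ones. Here too the libraries numbered 2 were the lowest, and the ranges overlapped almost entirely. The log2 fold change of Gjc1 was 0.06 ± 0.27 (adjusted p = 0.96, edgeR), with an interval from -0.54 to 0.66. Its sign was opposite in 10 of the 19 alternative settings. In that fit, differences of Gjc1 inside this interval were not detectable.

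Gja1 and Gjc1 supplied most connexin counts in both populations. Of the counts summed over the 20 connexin genes of the table, Gja1 held 73.9% ± 4.42 (SD, n = 3) in muscle and 72.5% ± 9.21 in epithelium. Gjc1 held 13.2% ± 1.09 and 15.2% ± 1.77. The lowest share of Gja1 was 61.9% in epithelium replicate 2 (Clopper-Pearson 95% interval 60.3 to 63.4), the library with the most background counts. In the other 5 libraries it was between 70.2% and 78.8%. Gja5 took 6.23% ± 1.33 in muscle and 0.70% ± 0.84 in epithelium. Intervals of single libraries cover counting error only and treat counts as independent. Per library, 73.8% to 79.6% of nonzero gene counts under 20 were even, so many counts appear to come in pairs. The intervals are then too narrow even for counting error. Counts of this kind have no molecular identifiers, so PCR copies are included.

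**Figure D2:**
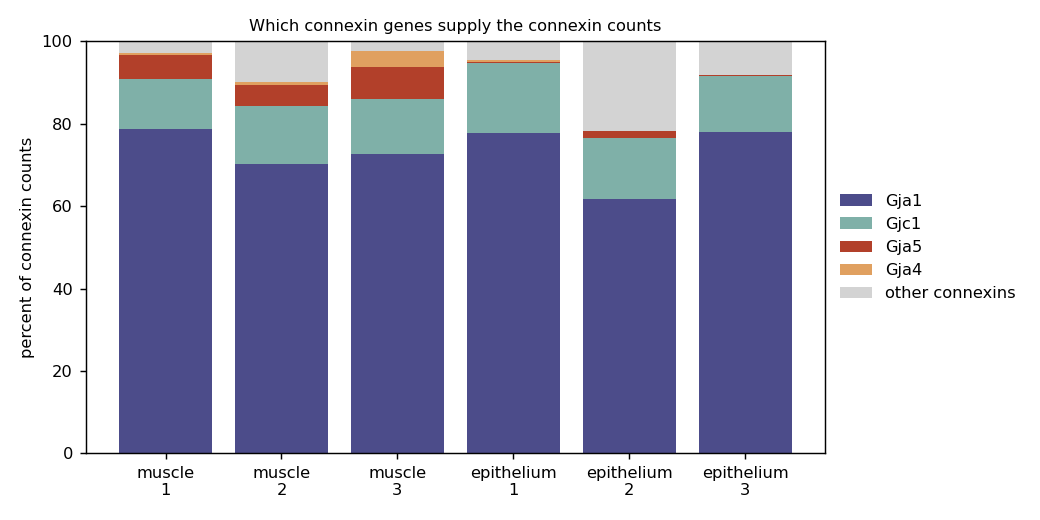
Percent of the counts over 20 connexin genes (stacked to 100) held by each gene in each library. Gja1 fills 61.9% to 78.8% of every bar; the Gja5 segment is 5.04% to 7.67% in muscle and 0.18% to 1.67% in epithelium.

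Per kilobase of the principal GENCODE transcript, Gja1 had the highest level of the 9 genes in both populations, at 86.3 ± 23.5 CPM per kb (SD, n = 3) in muscle and 70.2 ± 19.1 in epithelium. Gjc1 came second with 20.8 ± 4.24 and 20.01 ± 4.67 CPM per kb, and each Gjc1 library lay under every Gja1 library. The next gene was Gja5 in muscle, at 7.61 ± 3.13 CPM per kb, and Panx1 in epithelium, at 5.34 ± 2.19. In muscle Gja4 (4.10 ± 5.12) and Panx1 (1.64 ± 0.68) followed, closer together than the spread of Gja4, and changed places when coding length was used. The other 4 genes were all below 1 CPM per kb in both means, an order that does not exceed their spread.

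Gja5 encodes Cx40, best known from cardiac atria and conduction tissue and from arterial endothelium. GENCODE places it at chr3:96904693-97077416 on the plus strand, a span that overlaps Gpr89 and other genes on the other strand. Reads of overlapping exons cannot be told apart without strand. Gja5 had 24.5, 13.5 and 32.9 CPM in muscle replicates 1 to 3 (645, 271 and 1303 counts) and 0.59, 4.14 and 0.83 CPM in epithelium replicates 1 to 3 (32, 62 and 22 counts). The lowest muscle library was replicate 2, the one with the least muscle marker signal, and the highest epithelial library was replicate 2, the one with the most background. The groups were still apart, with means of 23.7 ± 9.73 CPM (SD, n = 3) and 1.85 ± 1.99. On the log2 scale muscle was higher by 3.72 ± 0.77 (adjusted p = 0.015, edgeR), a fitted fold of 13.2.

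The log2 fold change of Gja5 was between 3.24 and 5.403 in the 19 alternative settings, and 14 of them passed the threshold. Fitting the replicate number as a block ended the call (adjusted p = 0.055, edgeR), as did scaling by library size only (0.052), leaving out epithelium replicate 3 (0.061), the block with a covariate for background counts (0.22) and a threshold of 0.01. Among the 4 libraries of the later header date the log2 fold change was 5.28 ± 0.42 (adjusted p = 0.0011). On the earlier date, with 1 library of each population and so no test, Gja5 had 13.5 CPM in muscle and 4.14 in epithelium. Without the 3 libraries with the most background counts it was 5.403 ± 0.60 (adjusted p = 0.0020), with 1 epithelial library that is assumed to vary like the others.

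Markers of other cell types were read in the same libraries. The summed level of 12 endothelial markers was 84.6 to 120.9 CPM in muscle and 15.1 to 87.6 in epithelium, and 1 of them, Esam, passed the threshold toward muscle. In muscle replicate 1, where Gja5 had 24.5 CPM, 2 of the 12 (Tie1 and Cldn5) had no counts and 5 (Pecam1, Cdh5, Emcn, Sox17 and Sox7) were between 0.038 and 0.84 CPM. The other 5 endothelial markers ran from 3.69 CPM (Kdr) to 34.6 CPM (Tek, its highest level of the 6 libraries) in that library. Muscle replicate 3, with the most Gja5 (32.9 CPM), also had the highest endothelial sum, 120.9 CPM. All 12 markers had counts there, from 0.051 CPM (Emcn) to 32.9 CPM (Tek), with Tie1 at 6.95 and Cldn5 at 7.13. Muscle replicate 2, with the least Gja5 in muscle (13.5 CPM), had a sum of 94.96 CPM, against 84.6 in muscle replicate 1. Of 6 arterial markers none passed toward muscle and Dll4 passed toward epithelium, and their sums overlapped (95.4 to 130.5 CPM in muscle, 113.4 to 120.1 in epithelium). Hey1, at 45.2 to 101 CPM, was a large part of each sum. Efnb2 was higher in every muscle library (1.23 log2 units, adjusted p = 0.074, edgeR). Jag2 was higher in every epithelial library (-2.33, adjusted p = 0.075), and neither passed. The summed level of 9 markers of pericytes and vascular muscle was 1273 to 1474 CPM in muscle and 138 to 263 in epithelium, with 4 of them past the threshold toward muscle. The sum of 11 chondrocyte markers was also higher in every muscle library, at 971 to 1634 CPM against 355 to 670. Sox9, Col9a1 and Col9a2 passed toward muscle, while Col9a3, Sox5, Sox6, Col2a1 and Acan did not pass. Matn1 (-1.71 log2 units), Matn3 (-1.46) and Comp (-1.76) lay toward epithelium without passing. The part of these cells in the difference of Gja5 was not tested.

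Gja4 encodes Cx37, a connexin of arterial endothelium and of the oocyte and its follicle. It sits on the minus strand at chr4:127311421-127314039, in a cluster of connexin genes that includes Gjb5. Gja4 had 1.90, 1.95 and 16.9 CPM in muscle and 1.73, 0 and 0.23 CPM in epithelium. A single library, muscle replicate 3, held 667 of its counts against 50 and 39 in the other muscle libraries. The 0 in epithelium replicate 2 allows a level of up to 0.2005 CPM (3 counts) if counts are independent, and more if they come in pairs. Although the groups did not overlap, the log2 fold change of 3.36 ± 1.63 missed the threshold (adjusted p = 0.29, edgeR). Without muscle replicate 3 it was 1.54 ± 2.32. With a covariate for background counts the adjusted p was 0.021, the only one of 19 alternatives past the threshold. The sum of the 12 endothelial markers was 84.6, 94.96 and 120.9 CPM in muscle replicates 1 to 3, highest where Gja4 was. Single markers did not share 1 order: Pecam1, Tie1, Cldn5, Egfl7 and Erg were highest in muscle replicate 3, Cdh5, Kdr, Emcn, Sox17 and Sox7 in muscle replicate 2, and Tek and Esam in muscle replicate 1. Epithelium replicate 2, with a sum of 87.6 CPM, had no Gja4 counts. Their part in the level of Gja4 was not tested.

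The beta connexins Gjb1 (Cx32, of liver and Schwann cells), Gjb2 (Cx26) and Gjb6 (Cx30), partners in the inner ear and skin, and Gjb5, of skin and trophoblast, were all low. Their levels ran from 0 to 3.48 CPM over the 6 libraries (0 to 103 counts). None passed the threshold, and no interval was narrower than several log2 units. Gjb1 had 0.53, 0.60 and 0.25 CPM in muscle and 0.37, 0.74 and 0.38 CPM in epithelium. Its log2 fold change was -0.10 with an interval from -4.25 to 4.05. In muscle replicate 2 and epithelium replicates 2 and 3 those values stood close to the background mean of the same library.

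Gjb2 was highest in both libraries numbered 2, at 1.90 CPM in muscle and 2.07 CPM in epithelium, against 0.30 to 1.13 CPM elsewhere. Gjb6 had its highest level, 3.48 CPM, in epithelium replicate 2 and no counts in epithelium replicate 1. The latter allows up to 0.056 CPM if counts are independent, and more if they come in pairs. Muscle levels of Gjb6 were 0.46, 1.35 and 1.42 CPM, so that the epithelial libraries enclosed the muscle ones. Gjb5 had 0.68, 0.90 and 2.60 CPM in muscle and 0.47, 0.53 and 0.38 CPM in epithelium. The groups of Gjb5 did not overlap, with a log2 difference of 1.601 ± 1.68 (edgeR adjusted p = 0.78) and the highest value again in muscle replicate 3. At these counts a difference between muscle and epithelium was not detectable for the 4 beta connexins.

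**Figure D3:**
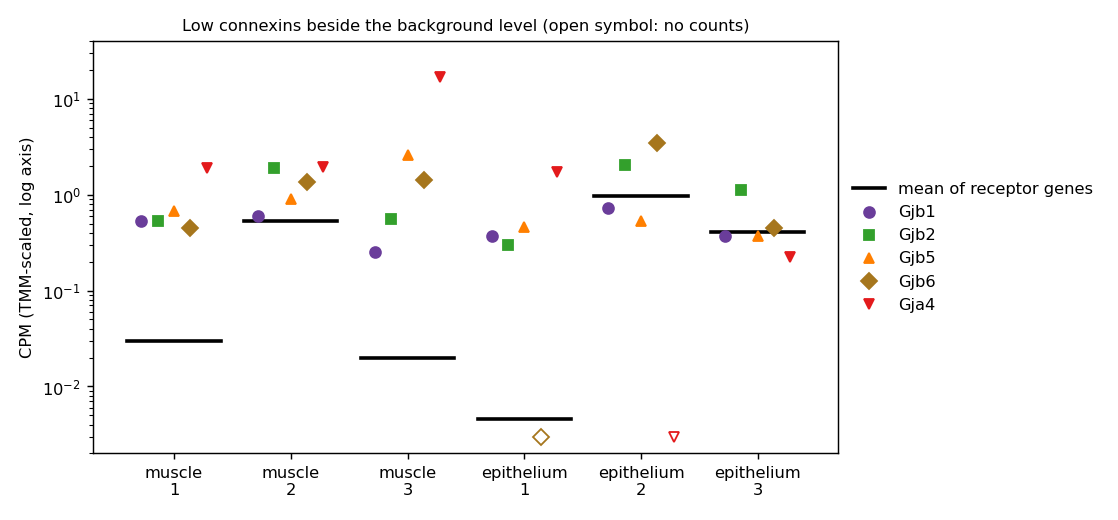
TMM-scaled CPM (log axis) of Gjb1, Gjb2, Gjb5, Gjb6 and Gja4 in each library; black bars are the mean over 1449 receptor genes, the background, and open symbols mark no counts. In muscle replicate 2 and epithelium replicates 2 and 3 the background bars reach 0.41 to 0.98 CPM, among the connexin points.

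Panx1 was the pannexin that differed. Its gene, on the minus strand at chr9:15002128-15045478, has 5 coding exons, unlike most connexins with their single one. Panx1 had 5.44, 9.59 and 13.2 CPM in muscle replicates 1 to 3 and 43.0, 30.9 and 17.9 CPM in epithelium replicates 1 to 3. The lowest epithelial library, replicate 3, was next to the highest muscle library, and the epithelial libraries spread widely. The muscle mean of 9.40 ± 3.87 CPM (SD, n = 3) compared with an epithelial mean of 30.6 ± 12.6. The fitted log2 difference of -1.70 ± 0.42 passed the threshold (adjusted p = 0.032, edgeR), a fold of 3.26 toward epithelium, with an interval from -2.65 to -0.75.

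The direction of Panx1 was the same in all 19 alternative settings (-2.39 to -1.35), and 12 of them passed the threshold. With the replicate block its adjusted p was 0.11 (edgeR), and the threshold of 0.01 was not met either. Leaving out muscle replicate 1 gave 0.089, muscle replicate 2 0.051, epithelium replicate 1 0.0996 and epithelium replicate 2 0.057. On the later header date alone the log2 fold change was -1.78 ± 0.59 (adjusted p = 0.10). The libraries of the earlier date had 9.59 CPM in muscle and 30.9 in epithelium. Unlike Gja5, Panx1 kept its call with library size only (adjusted p = 0.031).

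**Figure D4:**
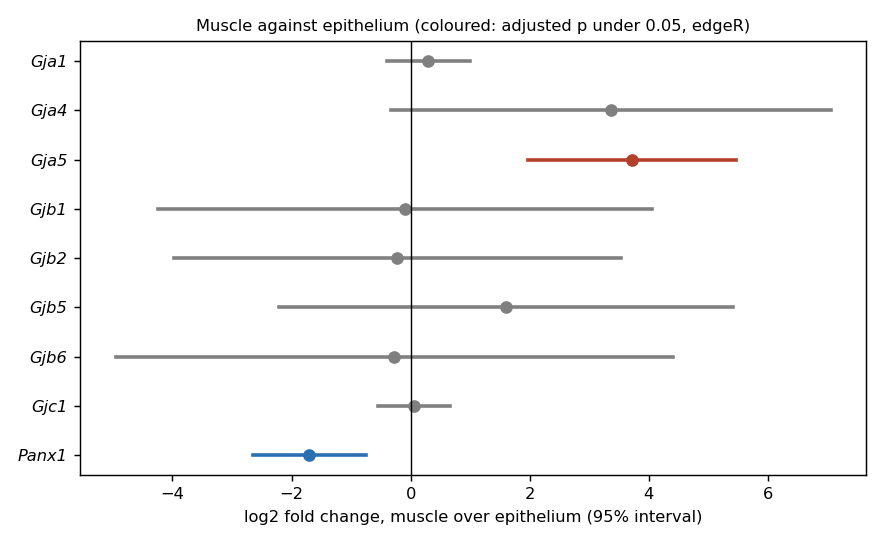
Log2 fold change, muscle over epithelium, with its 95% interval (edgeR) for the 9 genes; coloured points have an adjusted p under 0.05. All intervals but those of Gja5 and Panx1 span both directions. Those of Gja1 and Gjc1 stay within -0.54 to 1.00, and those of the beta connexins are wider.

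The table holds 14 further connexin and pannexin genes, of which 9 had enough counts to be tested and 1 passed the threshold. Among all tested genes 10.7% passed. The median log2 fold change over these 9 was -1.23. Panx2, a pannexin best known from the nervous system, had 0.30, 2.40 and 0.58 CPM in muscle and 4.07, 1.74 and 4.66 CPM in epithelium. The populations overlapped, and Panx2 did not pass (-1.68 ± 1.30 log2 units, adjusted p = 0.62). Without the 3 libraries with the most background counts its adjusted p was 0.044. Panx2 was named after its values were seen.

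**Figure D5:**
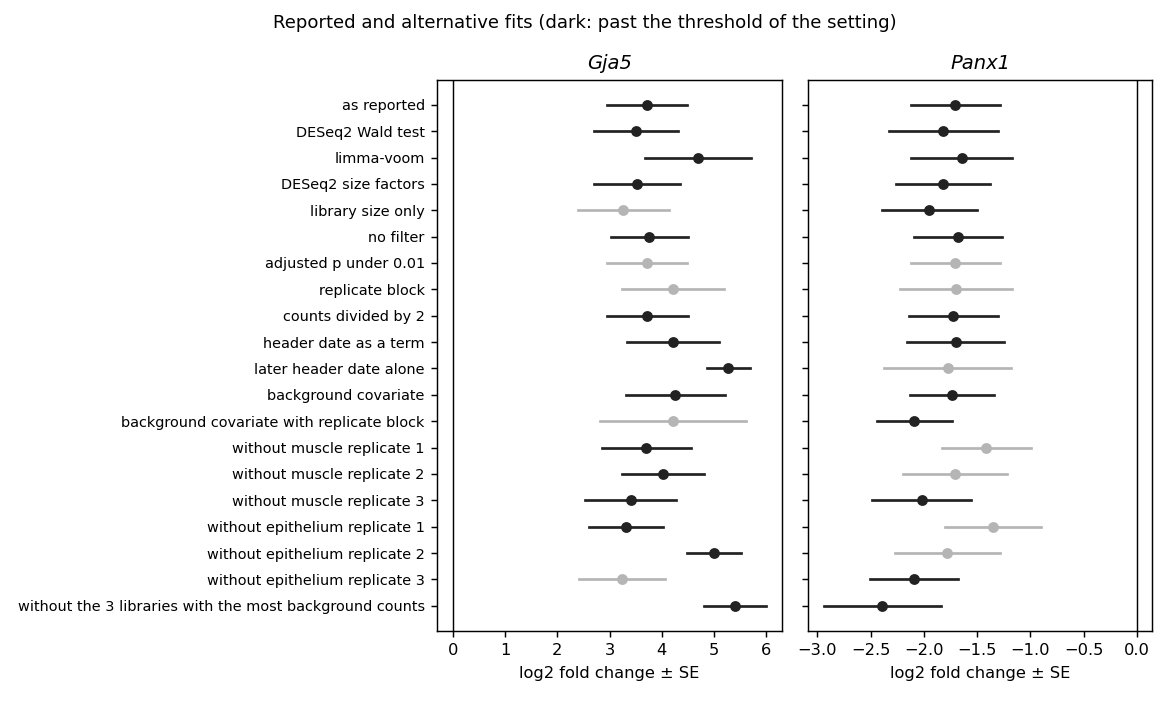
Log2 fold change ± SE of Gja5 and Panx1 as reported and in 19 alternative settings; dark points pass the threshold of that setting. No setting changes the sign, and 14 and 12 of the alternatives pass.

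Partners of connexins were read from a list of 20 genes in the table, the scaffolds, kinases and trafficking proteins that bind them. In muscle 1 of them passed as higher and in epithelium 3 did (8 of the 20 stood at an unadjusted p under 0.05), and the median log2 fold change was 0.16. Over all tested genes, 6.58% passed toward muscle and 4.11% toward epithelium. Cav1, the membrane scaffold caveolin, had 434, 284 and 518 CPM in muscle and 10.1, 28.7 and 17.5 CPM in epithelium (4.47 ± 0.45, adjusted p = 0.00062, edgeR). Tjp3, a tight junction scaffold, was higher in epithelium, by -5.18 ± 1.05 log2 units (adjusted p = 0.014). Tjp1, the scaffold best known for binding Cx43, had -0.72 ± 0.32 and did not pass (adjusted p = 0.23), though its groups did not overlap. Tjp1 was named after its value was seen. Cdh1, also one of the epithelial markers, was higher in epithelium as well (-7.61 ± 0.54, adjusted p = 0.00012). Tjp3 did not pass without muscle replicate 1, epithelium replicate 1 or epithelium replicate 3 (0.066 to 0.073), without the filter on low counts (0.051) or with the background covariate (0.097).

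Genes of extracellular ATP, the ligand that Panx1 channels release, were read from a list of 28, of which 26 had enough counts for a test. In muscle 2 of them passed as higher and in epithelium 4 did, with a median log2 fold change of 0.09. Over all tested genes, the shares were 6.58% toward muscle and 4.11% toward epithelium. P2ry2, a receptor for ATP and UTP, had 5.47, 5.74 and 6.85 CPM in muscle and 78.4, 71.5 and 89.8 CPM in epithelium. P2ry2 thus differed by -3.73 ± 0.25 log2 units (adjusted p = 9.6e-05, edgeR) and passed in all 19 alternatives. The ATP-gated channel gene P2rx2 (-4.92 ± 0.82, adjusted p = 0.0055) and Alpl (-2.14 ± 0.36, adjusted p = 0.0057), an ectophosphatase named after its value was seen, were also higher in epithelium and passed in all of them.

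Of the 9 tested genes in the list for enzymes that act on extracellular nucleotides or adenosine, Entpd1 passed toward muscle, Entpd3 and Alpl passed toward epithelium, and 6 did not pass. Entpd1 had 74.8, 18.2 and 67.7 CPM in muscle and 0.80, 4.28 and 5.11 CPM in epithelium (4.01 ± 0.76, adjusted p = 0.010, edgeR). Entpd3, of the same family, had 0.19, 1.498 and 0.51 CPM in muscle and 92.8, 25.2 and 75.4 CPM in epithelium (-6.53 ± 0.78, adjusted p = 0.0012). Under the replicate block Entpd1 did not pass (adjusted p = 0.065), nor did it without muscle replicate 1 (0.051) or with the background covariate (0.11). The receptor gene P2rx4 was higher in muscle by 1.25 ± 0.31 (adjusted p = 0.035), and every fit that left out a library lost that call, at 0.061 to 0.098. With library size only P2rx4 did not pass either (adjusted p = 0.14).

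The genes most like Gja5 and Panx1 in their pattern over the 6 libraries were sought among 9371 and 9370 genes whose mean level was 4 or more on the log2 CPM scale. Likeness was the root mean square difference of centred log2 CPM. Nearest to Gja5 were the amino acid transporter gene Slc38a5, at 0.17 log2 units, Inhba, which encodes a subunit of activin, at 0.19, and Fxyd7 at 0.26. Nearest to Panx1 were Irf2bp1 at 0.13, Obsl1 at 0.16 and Zdhhc7 at 0.17. The points are 6 libraries in 2 populations that share their depth and background, so this likeness describes these libraries only.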

How the data were processed

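Whole-number counts per gene symbol were used as the authors deposited them, for 23478 genes in 6 libraries (SMART-Seq v4 cDNA, Nextera XT, per the labels' protocols). The submitters' processing notes name Trim Galore, Bowtie2, Cufflinks, DESeq and mm10 without roles; the counting program and annotation are not given in the sources used here. Such libraries keep no strand and carry no molecular identifiers, so counts of overlapping genes are uncertain. Low genes were removed by filterByExpr, and the rest scaled by TMM (trimmed mean of M-values) and tested with edgeR 4.0.16 in R 4.3.3 (quasi-likelihood, robust, two-sided, Benjamini-Hochberg over 19375 genes, threshold 0.05). SE was derived from the test statistic. limma 3.58.1 and DESeq2 1.42.0 served as alternatives. The fit was tested on simulated data. Same-numbered libraries correlated in their deviations from the group mean at 0.59, 0.73 and -0.57 over 19375 genes. Identifiers in the file headers match for numbers 1 and 2 only, so the replicate block is a doubtful pairing. Members and lists were chosen with earlier results of these data known. Named were the 9 members, up to 3 genes per direction of each list past the threshold, and 3 genes most like each member past the threshold. Gene positions and lengths are from GENCODE M21 or, where said, RefSeq (GRCm38, the assembly called mm10). Nov and Emr1 were matched through synonyms, and 1 listed gene, Gramd2b, had no match. Some genes that the rule would name are not reported here.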

Additional observations from a re-analysis of the deposited data

How the results depend on the processing

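Of 2071 genes that differed, DESeq2 gave 3549, an adjusted p under 0.01 983, the header date as a term 3178, and fits without 1 library 1169 (without epithelium replicate 3) to 2573; without muscle replicate 1 it was 1323. Of the 2 members that differed, 1 passed with library size only, on the later header date alone and with the background covariate plus replicate block, and 0 at 0.01 or with the replicate block alone (unadjusted p under 0.05 in 2 and 3). The background covariate called 3, Gja4 being the third. Fits without 1 library called 1 or 2 members. Of the further connexins and pannexins, 1 in the reported fit, 0 passed at 0.01, 2 without the 3 libraries with the most background counts, and 0 to 2 without 1 library (0 without epithelium replicate 3, 2 without muscle replicate 2). Of 4 connexin partners, DESeq2 gave 8, 0.01 gave 2, and fits without 1 library 2 (without epithelium replicate 1) to 4. The ATP list gave 4 to 9 against 6.

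Among the members, signs turned for Gjb1, Gjb2, Gjb6 and Gjc1, which no setting called. Log2 fold changes in fits without 1 library ran from -0.35 to 0.27 for Gjb1, -1.07 to 0.53 for Gjb2, -0.84 to 2.31 for Gjb6 and -0.16 to 0.27 for Gjc1. Gjb1 turned to 0.016 with the background covariate and 0.049 with that and the block. Gjb2 turned to 0.30 (limma-voom), 0.27 (background covariate), 0.18 (with the block) and 0.68 (without the 3 libraries). Gjb6 turned to 3.23 (limma-voom), 1.72 (replicate block), 1.01 (date as a term), 2.00 (later date), 2.78 (background covariate), 2.41 (with the block) and 8.15 (without the 3 libraries, against 1 library with no counts, so no bound). Gjc1 turned to -0.058 (DESeq2, and DESeq2 size factors), -0.20 (library size only), -0.013 (later date), -0.028 (background covariate), -0.030 (with the block) and -0.30 (without the 3 libraries). With library size only, 42.0% of all called genes were higher in muscle, against 61.5% as reported. In the ATP list P2rx7, named after its values were seen, was -0.22 as reported, turned sign in 8 of 19 alternatives and passed in 1 (adjusted p = 0.028). The cause of these changes was not tested. The fit without the 3 libraries was chosen after seeing the data. Called genes named only as markers, or as most like Gja5 or Panx1, were not checked singly in the alternative settings. Among the other genes with a call named here, the replicate block changed only Gja5, Panx1 and Entpd1. Together with the background covariate it ended the calls of Gja5, Entpd1 (adjusted p = 0.25), Cav1 (0.15), Cdh1 (0.066), Tjp3 (0.39), Entpd3 (0.29) and P2rx4 (0.067), but not that of Panx1. Connexin shares moved by less than 1 SD when limited to the members or taken per coding length. Low counts limit the beta connexins.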
